A study of Homo sapiens with 12 samples.

Results

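The genes described here are the chemokines, the interleukins and the interleukin receptor chains of SUM149PT cells, a human breast cancer line, after inhibition of the kinase AKT, of the histone methyltransferase EZH2, or of both. They were taken by symbol from the count files: CXCL or CCL followed by a number, IL followed by a number, and CX3CL1, LIF, CSF1, CSF2 and CSF3, without IL6ST. This gave 131 of the 23228 genes counted. By role there were 14 CXC chemokines (IL8, now named CXCL8, included), 25 CC or CX3C chemokines, 47 interleukins or growth factors, 6 secreted or decoy inhibitors, 38 receptor chains and IL4I1, a secreted amino acid oxidase that carries an interleukin name.

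PolyA RNA was sequenced from 12 libraries in 4 groups of 3, lettered A, B and C. The control group received the solvent DMSO. The ipatasertib group received the AKT inhibitor at 5 uM, the tazemetostat group the EZH2 inhibitor at 5 uM, and the combination group both at those doses. Tazemetostat or DMSO was present from day -5 and again on day 0, whereas ipatasertib was given on day 0, in medium with 2% serum that all groups shared, and cells were collected 24 hours later. The labels name no genotype change, and 1 cell line at 1 dose of each compound was studied. They do not say whether A, B and C were separate cultures, so the p-values measure the spread between these libraries, which may be technical.

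Chemokines are small secreted proteins that attract leukocytes through G protein-coupled receptors, and those whose symbols begin with CXC and carry an ELR motif, such as IL8, CXCL1 and CXCL6, act mainly on neutrophils. Interleukins signal through paired receptor chains: the IL1 family uses adaptor proteins that lead to NF-kB, while the IL6, IL2 and IL10 families use JAK kinases and STAT factors. Basal-like breast cancer cells, the class to which SUM149PT belongs, are known to secrete IL6, IL8 and related factors themselves.

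Gene-assigned counts ran from 22355242 to 49970540 per library. Pairs of libraries within a group differed by more than counting noise, with a chi-square of 2.66 to 25.5 per degree of freedom over genes. Tazemetostat A and combination B stood farthest from their partners, at 18.1 to 19.9 and 14.9 to 25.5, and the calls that changed without them are given with the interaction and in the closing section. All 8 epithelial markers fixed for the check were tested. Their summed level was 3225.5 to 3372.8 CPM (gene-assigned counts scaled by library total alone, without the TMM factors used below) in the DMSO libraries. It ranged over 1985.4 to 2108.8 in the ipatasertib libraries, 2836.3 to 3102.3 in those of tazemetostat, and 1918.5 to 2052.8 when both were given. Of 12 leukocyte markers 4 passed the filter on low counts, MS4A1 and TYROBP were at 0 in all 12 libraries, and CD3D and CD2 had 1 count each in all. The leukocyte sum lay at 15.1 to 16.6, 15.5 to 17.3, 10.1 to 10.9 and 12.03 to 13.3 CPM in the same order, most of it CD14. Of 7 fibroblast markers 6 were tested, and the sum of the 7 was 517 to 547, 351 to 392, 110 to 118 and 82.9 to 90.4 CPM in that order. Most of its counts were of COL1A1 and DCN, while PDGFRA had 11, PDGFRB 102 and COL1A2 120 counts over the 12 libraries. Of 4 endothelial markers 2 were tested, and the sum of the 4 was 0.881 to 1.36, 3.18 to 3.97, 1.43 to 1.92 and 5.06 to 6.95 CPM. What part these shifts had in the values below was not tested.

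The promoters of the neutrophil-attracting chemokines are shown first, because these genes lie together on chromosome 4 and hold the same NF-kB type sequence. The sequences are RefSeq's, on GRCh38.p14, 60 bases each, 5′ to 3′ on the gene's strand, upstream of the start site, with the match to GGNNTTTCC in capitals. IL6, on chromosome 7, is added as an interleukin. Others with a match, such as IL27RA, IL1RN and IL32, are not shown.
CXCL1 (chr4:73869289-73869348, plus strand): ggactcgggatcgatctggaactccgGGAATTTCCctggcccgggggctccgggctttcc
CXCL2 (chr4:74099239-74099298, minus strand): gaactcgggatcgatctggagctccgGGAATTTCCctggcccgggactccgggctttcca
CXCL3 (chr4:74038734-74038793, minus strand): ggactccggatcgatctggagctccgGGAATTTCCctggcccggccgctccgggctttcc
CXCL5 (chr4:73998734-73998793, minus strand): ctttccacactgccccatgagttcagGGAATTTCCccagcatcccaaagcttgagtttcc
CXCL6 (chr4:73836563-73836622, plus strand): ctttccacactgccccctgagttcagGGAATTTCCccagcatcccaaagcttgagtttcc
IL8 (chr4:73740452-73740511, plus strand): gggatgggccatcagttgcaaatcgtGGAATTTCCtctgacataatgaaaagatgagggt
IL6 (chr7:22727102-22727161, plus strand): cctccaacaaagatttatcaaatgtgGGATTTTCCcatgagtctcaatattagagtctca

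The 6 chemokine genes shown carry the same 9 letters, GGAATTTCC, beginning 77 to 91 bases before the start site. CXCL1, CXCL2 and CXCL3 hold a second match, GGGCTTTCC, beginning 53 bases before it. Over the table's 300-base promoters (250 bases before the start and 50 after it), CXCL5 and CXCL6 were 83.1% identical, CXCL1 and CXCL3 82.5%, CXCL2 and CXCL3 73.7% and CXCL1 and CXCL2 69.8%, while IL8 was 43.0% to 44.7% identical to the others. CXCL10 and CXCL11, also on chromosome 4, hold GGAATTTCC on the other strand, from 176 and 75 bases before the start, and CCL20 on chromosome 2 holds GGGTTTTCC there, so these letters are not particular to the 6. On either strand, GGNNTTTCC was found in 6.26% of all 35116 promoters of the table and in 28 of the family's 149, since a gene can have several. TGANTCA, an AP-1 type sequence, was in 7.71% of all and in 27 of the 149, among them IL8, IL1A, IL11 and IL6R. TTCNNNGAA, a STAT type sequence, was in 7.66% and 23 of 149, and GTAAACA, a FOXO type sequence, in 3.42% and 3 of 149. A match describes the letters in this window and not a bound site.

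Of the 131 genes, 65 passed the filter on low counts and were tested, 44 had counts but did not pass, with at most 17 counts in a library, and 22 were at 0 in every library. The tested genes were 9 of 14 CXC chemokines, 4 of 25 CC or CX3C chemokines, 22 of 47 interleukins or growth factors, 5 of 6 inhibitors, 24 of 38 receptor chains and IL4I1. Among the tested, 4 (CCL2, CXCL11, IL10 and IL37) had under 10 counts in every DMSO library and passed through other groups. Others had few DMSO counts as well, such as CXCL10 (10, 6 and 2), IL12A (8, 12 and 8) and IL20 (8, 10 and 6). They stay in the counts given below without the 4. A gene is called higher or lower below where edgeR's quasi-likelihood test gave a Benjamini-Hochberg adjusted p under 0.05 over all 14874 tested genes, in 1 fit of the 12 libraries.

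With ipatasertib against DMSO, 15 of the 65 tested genes were higher, 19 lower and 31 not called, where 25.4% of all tested genes were higher and 28.7% lower. With tazemetostat, 25 were higher and 21 lower against a background of 25.1% and 20.9%. The family's share was thus 38.5% and 32.3% with tazemetostat and 23.1% and 29.2% with ipatasertib. With both inhibitors 23 were higher and 21 lower, or 35.4% and 32.3%, beside 36.5% and 34.5% of all tested genes. Changes of at least 2-fold with a called p numbered 7 with ipatasertib (6.64% of all tested genes), 14 with tazemetostat (7.76%) and 21 with both (18.9%). The median log2 change of the family was -0.09 with ipatasertib, 0.18 with tazemetostat and 0.05 with both, beside -0.01, 0.02 and 0.02 over all tested genes. Its median absolute log2 change was 0.48, 0.53 and 0.73, beside 0.30, 0.22 and 0.45. Without the 4 genes of low DMSO counts the calls were 15 higher and 19 lower with ipatasertib, 24 and 21 with tazemetostat and 19 and 21 with both, of 61 genes, and the changes of at least 2-fold numbered 7, 13 and 17. Genes thus moved in both directions under each treatment. In these bulk libraries fewer cells expressing a gene and less of its RNA per cell cannot be told apart.

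**Figure D1:**
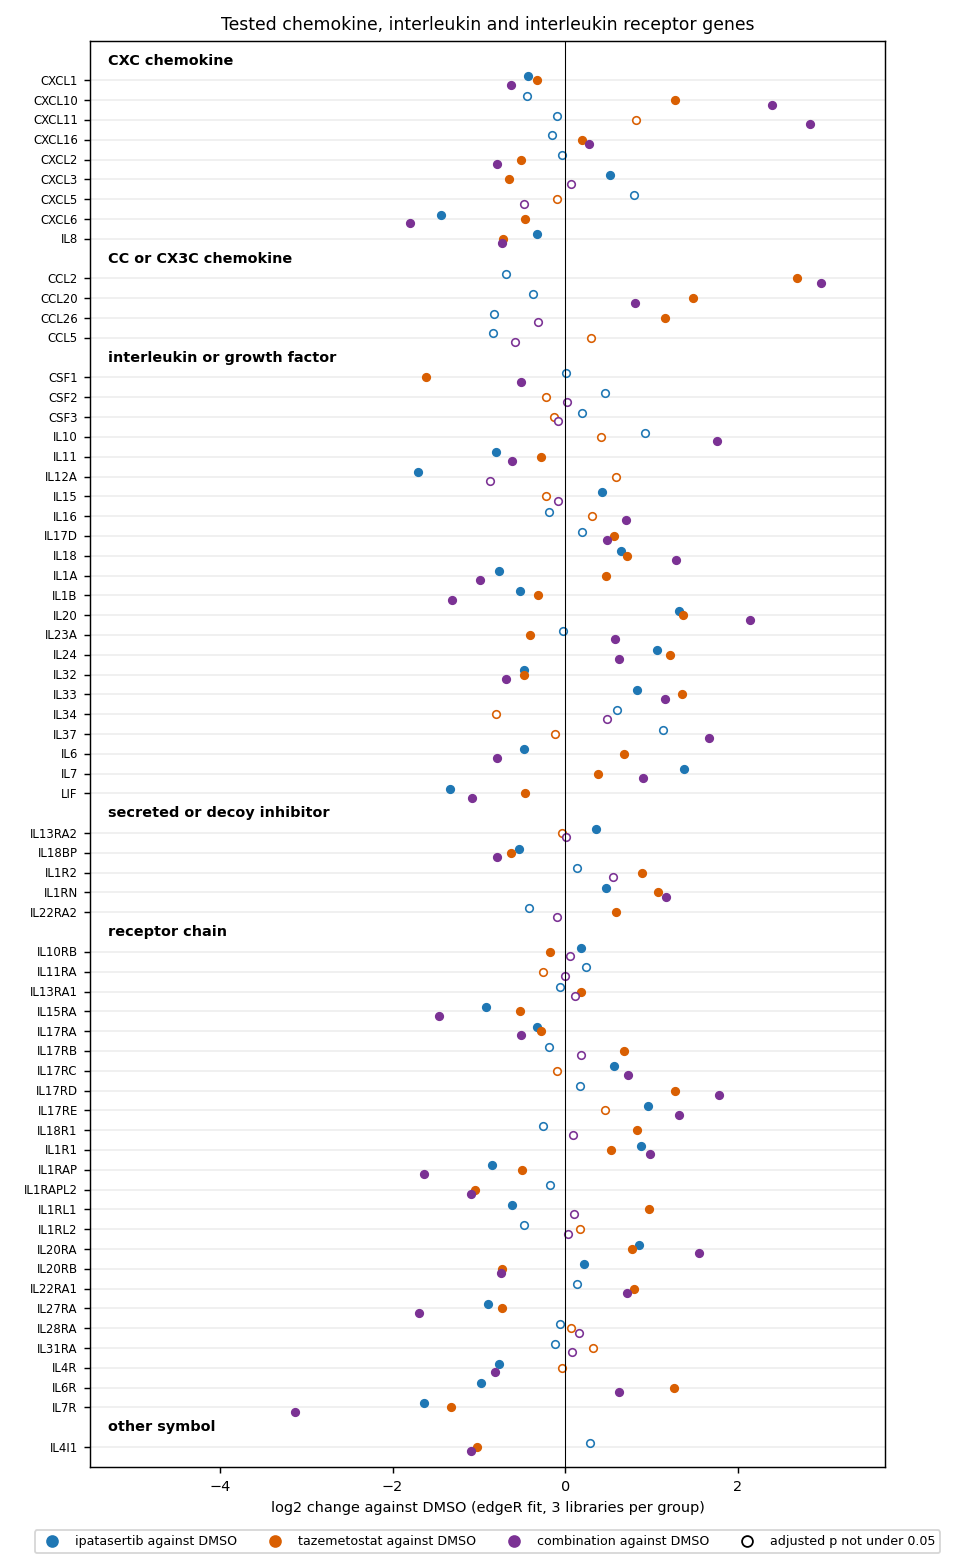
Log2 change against DMSO (horizontal axis) of each of the 65 tested genes, grouped by role, from the edgeR fit of 3 libraries a group. Blue is ipatasertib, orange tazemetostat and purple the combination; open points had an adjusted p of 0.05 or more. Points lie on both sides of 0 in each large group, and IL7R at -3.13 with the combination lies farthest to the left.

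The treatments were also compared with each other. Ipatasertib against tazemetostat had 15 genes higher and 28 lower (24.6% and 31.7% of all tested genes), 17 of them by at least 2-fold (9.63%). The combination against tazemetostat alone had 17 higher and 24 lower (29.8% and 30.8%), 13 by at least 2-fold (9.41%). Against ipatasertib alone it had 19 higher and 18 lower (21.8% and 17.3%), 9 by at least 2-fold (7.91%). These comparisons share libraries with those against DMSO and are not independent of them.

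Genes given with all their values are the 24 with a mean of at least 1 CPM that changed at least 2-fold against DMSO, or departed from additive log2 effects by at least 0.5, in called tests, with IL6 and IL8 given in any case. CXCL1, CXCL2, CXCL3, CXCL10, CXCL11, CCL2, IL4R, IL11, IL20, IL20RB, IL1R1, IL1RL1 and IL32 are added, chosen after their values were seen. Values are CPM in libraries A, B and C, here gene-assigned counts scaled to a common library size with TMM factors.

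Among the CXC chemokines, 4 of the 6 tested genes for ELR-bearing neutrophil attractants (CXCL1, CXCL2, CXCL6 and IL8) were lower with the combination. Of the 9 tested, 1 was higher and 3 lower with ipatasertib, 2 higher and 5 lower with tazemetostat, and 3 higher and 4 lower with both. CXCL10 is among the higher with tazemetostat and with both, and CXCL11 with both, each with few DMSO counts. CXCL6 held 14.7, 17.0 and 16.5 CPM under DMSO and 5.90, 5.63 and 6.22 with ipatasertib. It held 11.04, 11.9 and 11.9 with tazemetostat and 3.40, 5.62 and 4.82 with both. Every treated library lay below every DMSO library, and the highest combination library lay just under the lowest ipatasertib library. CXCL6 fell by 1.44 (SE 0.12, edgeR adjusted p = 7.43e-09) on the log2 scale with ipatasertib, by 0.46 (SE 0.11, adjusted p = 0.00178) with tazemetostat and by 1.79 (SE 0.12, adjusted p = 1.14e-10) with both.

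IL8, the prototype neutrophil attractant, held 230, 266 and 286 CPM under DMSO and 203, 221 and 201 with ipatasertib. It held 147, 168 and 158 with tazemetostat and 111, 200 and 159 with both. The combination libraries spanned the tazemetostat range on both sides. IL8 fell by 0.72 (SE 0.13, edgeR adjusted p = 0.000167) on the log2 scale with tazemetostat and by 0.73 (SE 0.13, adjusted p = 5.34e-05) with both. Its difference with ipatasertib was -0.32 (SE 0.13, adjusted p = 0.0427), and that call ended with DESeq2 (adjusted p = 0.157), with RLE or total-count scaling (0.0547 and 0.185), and with a filter of 1 CPM in 3 libraries (0.0658). It also ended when DMSO B or C, any 1 ipatasertib library, tazemetostat B or C, or combination C was left out (log2 -0.37 to -0.25, adjusted p 0.0519 to 0.158).

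CXCL1, CXCL2 and CXCL3 are close paralogs, so reads that the authors' counting could not separate make their individual values uncertain. CXCL1 held 355, 392 and 390 CPM under DMSO, 273, 286 and 287 with ipatasertib, 291, 308 and 310 with tazemetostat and 206, 295 and 235 with both. It fell by 0.43, 0.32 and 0.63 on the log2 scale with ipatasertib, tazemetostat and both (edgeR adjusted p = 0.000387, 0.00548 and 2.85e-06). CXCL2 held 13.4, 13.2 and 13.3 CPM under DMSO, 12.7, 13.4 and 12.8 with ipatasertib, 8.29, 10.1 and 9.46 with tazemetostat and 7.09, 7.81 and 8.03 with both. The ipatasertib libraries of CXCL2 overlapped those of DMSO (log2 -0.03, edgeR adjusted p = 0.759), while the other groups lay below them, at -0.51 (adjusted p = 8.31e-05) and -0.79 (adjusted p = 2.06e-07).

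CXCL3 moved the other way with ipatasertib. It held 14.98, 15.8 and 16.5 CPM under DMSO, 21.4, 22.9 and 23.7 with ipatasertib, 9.01, 11.3 and 9.68 with tazemetostat and 12.5, 20.1 and 16.8 with both. All ipatasertib libraries lay above, and all tazemetostat libraries below, the DMSO range, with the combination libraries on either side of it. The log2 change was 0.52 (SE 0.12, edgeR adjusted p = 0.00105) with ipatasertib and -0.66 (SE 0.12, adjusted p = 0.000246) with tazemetostat, and the difference between the inhibitors was 1.18 (adjusted p = 1.1e-07). With both inhibitors it was 0.07 (adjusted p = 0.639). CXCL6 and CXCL3 thus had ipatasertib changes of opposite sign. Their promoter windows above share 9 letters and CXCL3 holds a second match, but what part these sequences had was not tested. For IL8, CXCL1, CXCL3, CXCL6 and the CC chemokine CCL20, combination B was the highest and combination A the lowest of the combination libraries.

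**Figure D2:**
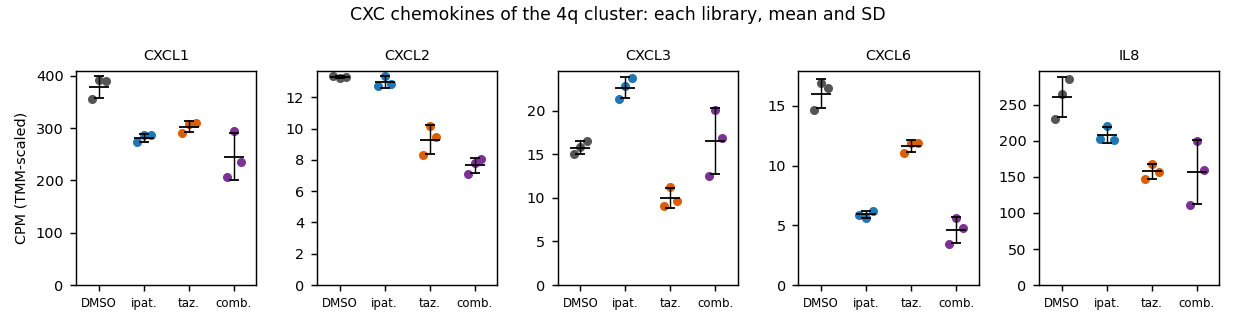
CPM (vertical axis, from 0, TMM-scaled) of CXCL1, CXCL2, CXCL3, CXCL6 and IL8 in each library, in order A, B, C from left to right within a group, with the mean and SD as bars. CXCL3 with ipatasertib, at 21.4 to 23.7 CPM, is above DMSO, while CXCL6 with ipatasertib, at 5.63 to 6.22 CPM, is below it.

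The interferon-inducible chemokines were counted rarely. CXCL10 had 18 counts over the DMSO libraries, 11 with ipatasertib, 56 with tazemetostat and 83 with both. CXCL11 had 14, 11, 32 and 88 counts, of which the combination libraries held 28, 29 and 31. No fold or test is given for these 2 genes, since CXCL11 passed the filter through the groups in which it was high and CXCL10 had 10, 6 and 2 counts in the DMSO libraries. Both genes lie within the span of ART3 in RefSeq, and the strand setting of the counting is not given in the sources used here.

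Of the 4 tested CC chemokines, CCL20 and CCL26 were higher with tazemetostat and CCL20 with both, CCL2 being given by its counts alone. CCL20, the ligand of CCR6, held 4.01, 4.18 and 4.12 CPM under DMSO, 2.91, 3.69 and 2.96 with ipatasertib, 10.1, 11.7 and 12.7 with tazemetostat and 5.19, 9.19 and 7.19 with both. No 2 groups overlapped. CCL20 rose by 1.49 (SE 0.15, edgeR adjusted p = 1.42e-07) on the log2 scale with tazemetostat and by 0.81 (SE 0.16, adjusted p = 0.000151) with both, and the combination differed from tazemetostat alone by -0.68 (adjusted p = 0.00037). With ipatasertib the change was -0.37 (SE 0.18, adjusted p = 0.0876). CCL2, a monocyte attractant, had 1, 2 and 3 counts in the DMSO libraries, 1, 2 and 0 with ipatasertib, 14, 23 and 15 with tazemetostat and 14, 18 and 10 with both. CCL2 passed the filter through the groups in which it was high, so no fold or test is given.

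Among the interleukins and growth factors, IL6 and IL1A fell with ipatasertib and rose with tazemetostat. With both inhibitors, all their libraries lay below those of either single treatment, though IL1A was not called against ipatasertib alone. Of the 22 tested, 6 were higher and 7 lower with ipatasertib, 8 and 6 with tazemetostat, and 10 and 7 with both. IL20, with few DMSO counts, is among the higher in each, as are IL10 and IL37 with both. IL6, the ligand of IL6R and gp130, held 31.2, 34.9 and 35.8 CPM under DMSO and 24.9, 25.2 and 22.8 with ipatasertib. It held 53.9, 51.7 and 57.6 with tazemetostat and 17.4, 22.4 and 19.1 with both. No 2 groups overlapped. The log2 change of IL6 was -0.48 (SE 0.09, edgeR adjusted p = 9.87e-05), 0.68 (SE 0.08, adjusted p = 1.43e-06) and -0.79 (SE 0.09, adjusted p = 1.05e-07), and ipatasertib lowered it by more beside tazemetostat (-1.47 against tazemetostat alone, adjusted p = 2.47e-11) than beside DMSO.

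IL1A, an alarmin of epithelial cells that binds IL1R1, held 14.8, 16.6 and 17.1 CPM under DMSO and 9.26, 9.70 and 9.43 with ipatasertib. It held 21.7, 22.3 and 23.4 with tazemetostat and 6.91, 8.67 and 8.82 with both. As for IL6, no 2 groups overlapped. IL1A changed by -0.77 (SE 0.09, edgeR adjusted p = 1.09e-06), 0.48 (SE 0.09, adjusted p = 0.000159) and -0.98 (SE 0.10, adjusted p = 1.66e-08). IL1B, the other IL1R1 agonist, held 39.3, 41.2 and 41.6 CPM under DMSO, 28.1, 30.0 and 26.7 with ipatasertib, 35.2, 31.7 and 30.9 with tazemetostat and 15.3, 16.8 and 16.9 with both. IL1B thus fell in every treatment, by 0.52 (SE 0.07, edgeR adjusted p = 4.69e-06), 0.32 (SE 0.07, adjusted p = 0.00103) and 1.32 (SE 0.07, adjusted p = 6.53e-12) on the log2 scale.

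IL18 and IL33, 2 IL1-family cytokines made by epithelial cells, rose in every treatment. IL18 held 52.3, 52.4 and 55.4 CPM under DMSO, 88.8, 84.2 and 77.9 with ipatasertib, 82.8, 90.7 and 89.2 with tazemetostat and 117, 144 and 129 with both. The single inhibitors overlapped each other, and the combination lay above both. IL18 changed by 0.65 (SE 0.07, edgeR adjusted p = 4.44e-07), 0.71 (SE 0.07, adjusted p = 1.9e-07) and 1.29 (SE 0.07, adjusted p = 7.92e-12). IL33 held 26.3, 28.6 and 29.4 CPM under DMSO, 51.6, 50.4 and 47.3 with ipatasertib, 64.9, 72.6 and 77.7 with tazemetostat and 55.5, 74.7 and 57.7 with both. Its combination libraries overlapped those of tazemetostat alone. IL33 changed by 0.83 (SE 0.10, edgeR adjusted p = 6.13e-07), 1.35 (SE 0.10, adjusted p = 9.33e-10) and 1.16 (SE 0.10, adjusted p = 1.81e-09).

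CSF1, the growth factor of macrophages, fell with tazemetostat and less so when ipatasertib was added. It held 99.6, 101 and 100 CPM under DMSO, 95.4, 103 and 104 with ipatasertib, 33.2, 31.5 and 33.9 with tazemetostat and 77.4, 60.3 and 73.7 with both. DMSO and ipatasertib overlapped, and the combination lay between them and tazemetostat. CSF1 fell by 1.61 (SE 0.08, edgeR adjusted p = 3.04e-12) on the log2 scale with tazemetostat and by 0.51 (SE 0.07, adjusted p = 5.03e-06) with both. The change with ipatasertib alone was 0.01 (SE 0.07, adjusted p = 0.953), while the combination was 1.10 (SE 0.08, adjusted p = 3.28e-10) above tazemetostat alone.

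LIF, an IL6-family cytokine, held 30.2, 33.4 and 27.7 CPM under DMSO, 9.91, 13.0 and 13.6 with ipatasertib, 23.9, 22.7 and 19.8 with tazemetostat and 16.3, 12.1 and 14.8 with both. Every treated library lay below DMSO, and the combination overlapped ipatasertib alone. LIF fell by 1.34 (SE 0.12, edgeR adjusted p = 1.93e-08), 0.46 (SE 0.11, adjusted p = 0.00212) and 1.08 (SE 0.12, adjusted p = 8.28e-08) on the log2 scale. IL11, of the same family, fell by 0.80, 0.28 and 0.61 (edgeR adjusted p = 3.78e-07, 0.0138 and 4.01e-06), the second of which was 0.062 with total-count scaling.

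IL7, a survival factor of lymphocytes, held 2.06, 2.02 and 2.88 CPM under DMSO, 6.17, 5.78 and 5.91 with ipatasertib, 3.10, 2.72 and 3.15 with tazemetostat and 4.26, 4.35 and 4.22 with both. Ipatasertib gave the highest values, and tazemetostat overlapped DMSO. IL7 rose by 1.38 (SE 0.14, edgeR adjusted p = 7.15e-08) on the log2 scale with ipatasertib and by 0.90 (SE 0.14, adjusted p = 1.16e-05) with both. With tazemetostat the value was 0.38 (SE 0.14, adjusted p = 0.0318), and that call ended with DESeq2 (adjusted p = 0.0513), in a fit of the 2 groups (0.0544), and without DMSO A or B, tazemetostat A or C, combination C or any 1 ipatasertib library (log2 0.27 to 0.36, adjusted p 0.0501 to 0.191).

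IL24 and IL20 are IL10-family cytokines that share the receptor chain IL20RA, and IL24 was higher in each treatment. IL24 held 1.31, 1.71 and 1.54 CPM under DMSO, 3.09, 3.38 and 3.04 with ipatasertib, 3.82, 4.14 and 2.63 with tazemetostat and 2.83, 2.23 and 1.96 with both. All treated libraries lay above DMSO. IL24 rose by 1.07 (SE 0.20, edgeR adjusted p = 0.000133) with ipatasertib and by 1.22 (SE 0.19, adjusted p = 2.82e-05) with tazemetostat on the log2 scale. With both the change was 0.62 (SE 0.21, adjusted p = 0.0112), and that call ended without DMSO A (0.52, adjusted p = 0.057) or combination A (0.45, adjusted p = 0.0721). IL20 had 24 counts over the DMSO libraries (8, 10 and 6), 51 with ipatasertib, 80 with tazemetostat and 92 with both. No fold or test is given for IL20, since its DMSO counts were as few as those of CXCL10.

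IL23A, a subunit of IL23, was higher with the combination and lower with tazemetostat. It held 3.77, 3.85 and 4.15 CPM under DMSO, 4.11, 3.35 and 4.04 with ipatasertib, 3.10, 3.30 and 2.51 with tazemetostat and 5.23, 6.70 and 5.69 with both. Tazemetostat libraries lay below all the others and combination libraries above them. IL23A rose by 0.58 (SE 0.13, edgeR adjusted p = 0.000624) on the log2 scale with both. The change with ipatasertib was -0.02 (SE 0.14, adjusted p = 0.896), and that with tazemetostat was -0.40 (SE 0.14, adjusted p = 0.0212), a call that ended with total-count scaling (-0.33, adjusted p = 0.0504), without DMSO C (-0.36, adjusted p = 0.0686) or tazemetostat C (-0.32, adjusted p = 0.0884).

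**Figure D3:**
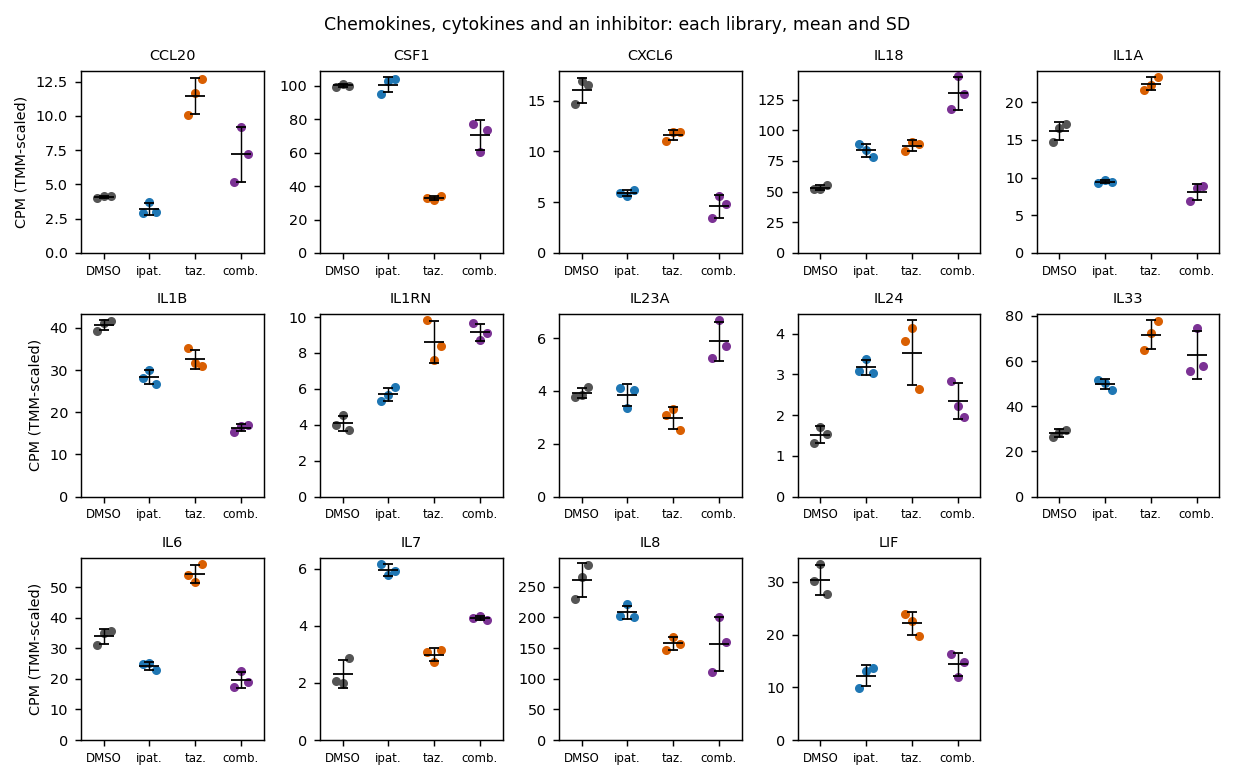
CPM (vertical axes, from 0, TMM-scaled) of 13 named chemokines, interleukins and growth factors and of the inhibitor IL1RN in each library, A, B and C from left to right, with the mean and SD as bars. IL6 and IL1A are lower than DMSO with ipatasertib, higher with tazemetostat and lowest with both, and CSF1 with tazemetostat sits at 31.5 to 33.9 CPM.

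Of the 5 tested secreted or decoy inhibitors, 2 were higher and 1 lower with ipatasertib, 3 and 1 with tazemetostat, and 1 and 1 with both. IL1RN, the antagonist that occupies IL1R1 without signalling, held 3.96, 4.54 and 3.73 CPM under DMSO, 5.32, 5.67 and 6.09 with ipatasertib, 9.85, 7.58 and 8.37 with tazemetostat and 9.67, 8.71 and 9.10 with both. All treated libraries lay above DMSO. IL1RN rose by 0.47 (SE 0.12, edgeR adjusted p = 0.00334), 1.08 (SE 0.11, adjusted p = 3.23e-07) and 1.17 (SE 0.12, adjusted p = 3e-08) on the log2 scale. IL4I1, the amino acid oxidase, held 1.20, 1.38 and 1.41 CPM under DMSO, 1.45, 1.64 and 1.83 with ipatasertib, 0.559, 0.837 and 0.562 with tazemetostat and 0.716, 0.298 and 0.790 with both. It fell by 1.02 (SE 0.26, edgeR adjusted p = 0.00311) with tazemetostat and by 1.09 (SE 0.28, adjusted p = 0.00165) with both, and its ipatasertib value was 0.29 (SE 0.24, adjusted p = 0.314). IL4I1 shares its span with NUP62 and ATF5 in RefSeq, so its reads may not all be its own.

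With the combination against DMSO, the receptor chain IL7R had the lowest log2 change of the 65 tested genes, and IL27RA, IL1RAP, IL15RA and IL20RA changed with each inhibitor and further with both. Of the 24 tested, 6 were higher and 8 lower with ipatasertib, 9 and 8 with tazemetostat, and 7 and 8 with both. IL7R, the chain that binds IL7 and, with CRLF2, TSLP, held 43.5, 50.8 and 54.1 CPM under DMSO (49.5 ± 5.45, SD, n = 3) and 15.6, 15.1 and 17.1 with ipatasertib. It held 21.1, 21.5 and 16.9 with tazemetostat and 5.87, 5.80 and 5.26 with both (5.64 ± 0.338, SD, n = 3). The single-inhibitor groups overlapped each other, below DMSO and above the combination. IL7R fell by 1.63 (SE 0.10, edgeR adjusted p = 7.96e-11), 1.32 (SE 0.09, adjusted p = 1.25e-09) and 3.13 (SE 0.11, adjusted p = 5.83e-15) on the log2 scale, the last an 8.78-fold difference. Its ligand IL7 had the opposite sign in each of the 3 comparisons.

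IL27RA, the IL27 receptor chain, held 110, 117 and 111 CPM under DMSO, 56.3, 61.9 and 63.5 with ipatasertib, 73.7, 65.4 and 64.0 with tazemetostat and 37.1, 32.3 and 34.6 with both. It fell by 0.90 (SE 0.07, edgeR adjusted p = 2.91e-09), 0.74 (SE 0.07, adjusted p = 5.64e-08) and 1.70 (SE 0.07, adjusted p = 9.05e-14) on the log2 scale. IL1RAP, the accessory chain that the IL1, IL33 and IL36 receptors need, held 130, 152 and 152 CPM under DMSO, 80.3, 80.2 and 80.9 with ipatasertib, 93.7, 109 and 105 with tazemetostat and 42.5, 52.7 and 44.1 with both. For IL27RA and IL1RAP both single-inhibitor groups lay between DMSO and the combination without overlap. IL1RAP fell by 0.84 (SE 0.08, edgeR adjusted p = 4.54e-08), 0.50 (SE 0.08, adjusted p = 4.76e-05) and 1.64 (SE 0.08, adjusted p = 1.11e-12). IL15RA, which presents IL15 to neighbouring cells, held 6.66, 8 and 7.46 CPM under DMSO, 3.46, 3.65 and 4.78 with ipatasertib, 4.94, 5.51 and 4.86 with tazemetostat and 2.54, 2.72 and 2.75 with both. It had the same order of groups and fell by 0.91 (SE 0.13, edgeR adjusted p = 5.5e-06), 0.53 (SE 0.12, adjusted p = 0.00111) and 1.46 (SE 0.13, adjusted p = 7.14e-09).

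IL20RA, a receptor chain of IL20 and IL24, rose in the same stepwise way. It held 8.84, 9.11 and 9.65 CPM under DMSO, 15.8, 16.8 and 17.3 with ipatasertib, 16.2, 15.2 and 15.8 with tazemetostat and 26.04, 27.3 and 27.6 with both. The changes were 0.85 (SE 0.08, edgeR adjusted p = 2.62e-08), 0.78 (SE 0.08, adjusted p = 9.76e-08) and 1.56 (SE 0.08, adjusted p = 6.34e-13) on the log2 scale. The chain IL20RB differed, at 0.22, -0.73 and -0.75 with ipatasertib, tazemetostat and both (edgeR adjusted p = 0.0156, 1.89e-07 and 3.66e-08). IL17RD, an inhibitor of growth factor signalling as well as a chain of the IL17 receptor family, held 2.30, 2.41 and 2.75 CPM under DMSO, 2.38, 3.16 and 2.91 with ipatasertib, 6.22, 6.09 and 5.56 with tazemetostat and 9.49, 7.33 and 8.63 with both. It rose by 1.27 (SE 0.13, edgeR adjusted p = 2.51e-07) with tazemetostat and by 1.78 (SE 0.13, adjusted p = 3.64e-10) with both, while ipatasertib overlapped DMSO (0.17, adjusted p = 0.374). IL17RE, the IL17C receptor chain, held 0.539, 0.902 and 0.785 CPM under DMSO, 1.20, 1.37 and 1.78 with ipatasertib, 1.05, 0.884 and 1.06 with tazemetostat and 1.83, 1.49 and 2.10 with both. IL17RE was called with ipatasertib and with both, at 0.96 (SE 0.25, edgeR adjusted p = 0.00279) and 1.32 (SE 0.24, adjusted p = 5.36e-05), against 0.46 (SE 0.24, adjusted p = 0.136) with tazemetostat.

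IL6R, the IL6 binding chain, held 1.29, 1.14 and 1.70 CPM under DMSO, 0.853, 0.304 and 0.869 with ipatasertib, 3.56, 3.51 and 2.79 with tazemetostat and 2.36, 1.93 and 2.02 with both. No 2 groups overlapped. It fell by 0.98 (SE 0.28, edgeR adjusted p = 0.00574) on the log2 scale with ipatasertib, rose by 1.26 (SE 0.20, adjusted p = 5.67e-05) with tazemetostat, and differed by -2.24 (SE 0.24, adjusted p = 1.88e-07) between them. With both it was 0.62 (SE 0.23, adjusted p = 0.02) above DMSO, a call that ended without DMSO A or B or combination A (0.50 to 0.58, adjusted p 0.0632 to 0.0902). IL6 and IL6R thus moved alike under each single inhibitor and had opposite signs with both. IL1RL1, the IL33 receptor ST2, also fell with ipatasertib (-0.62, edgeR adjusted p = 9.58e-05) and rose with tazemetostat (0.97, adjusted p = 8.97e-08), and was 0.11 (adjusted p = 0.356) with both.

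IL4R, the chain shared by the IL4 and IL13 receptors, was lower with ipatasertib and with both. It held 47.1, 48.9 and 45.3 CPM under DMSO, 27.6, 28.1 and 27.5 with ipatasertib, 51.3, 43.2 and 43.0 with tazemetostat and 28.4, 24.5 and 27.5 with both. IL4R fell by 0.76 (edgeR adjusted p = 1.05e-07) on the log2 scale with ipatasertib and by 0.81 (adjusted p = 1.36e-08) with both, and its tazemetostat value was -0.04 (adjusted p = 0.699). IL1RAPL2, an IL1 receptor accessory-like protein, was lower with tazemetostat and with both. It held 3.56, 3.699 and 3.73 CPM under DMSO, 3.16, 3.76 and 2.74 with ipatasertib, 1.70, 2.00 and 1.61 with tazemetostat and 1.68, 1.56 and 1.88 with both. It fell by 1.05 (SE 0.15, edgeR adjusted p = 9.05e-06) with tazemetostat and by 1.09 (SE 0.16, adjusted p = 3.68e-06) with both, and its ipatasertib value was -0.18 (SE 0.14, adjusted p = 0.3).

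**Figure D4:**
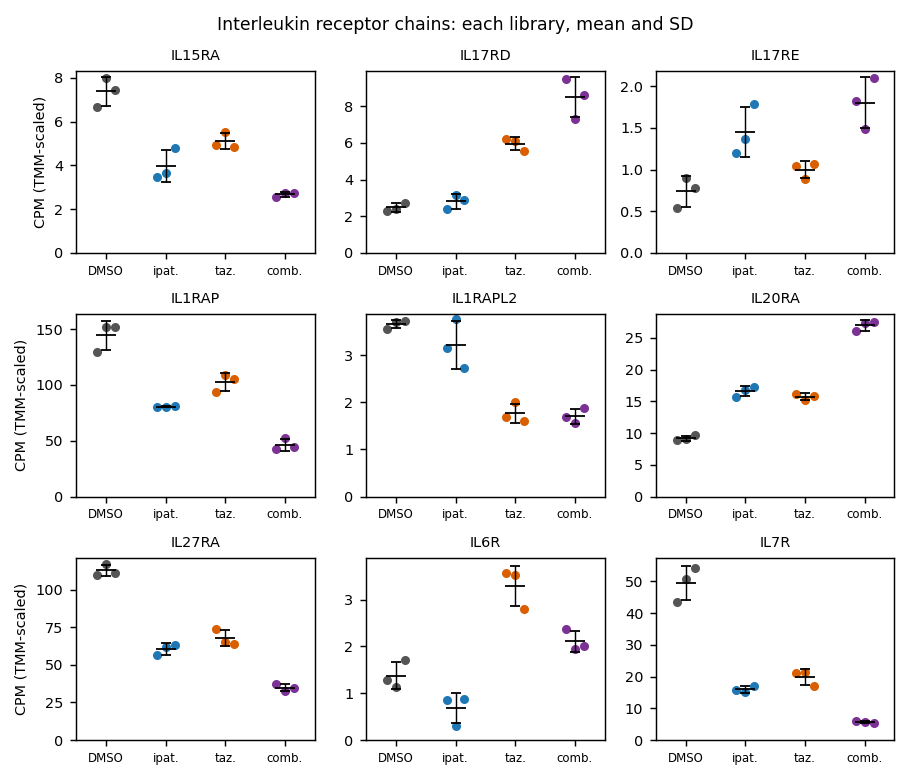
CPM (vertical axes, from 0, TMM-scaled) of 9 named receptor chains in each library, A, B and C from left to right, with the mean and SD as bars. IL7R, IL27RA, IL1RAP and IL15RA step down and IL20RA steps up to the combination, while IL6R lies below DMSO with ipatasertib and above it with tazemetostat.

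Whether the combination equalled the sum of the single log2 changes was tested by an interaction term. Of the 65 genes 4 were called above the sum and 7 below it (6.15% and 10.8%), beside 1.87% and 1.75% of all tested genes. Without tazemetostat A and combination B the counts were 8 and 14, with all 11 of these genes among them. That fit keeps tazemetostat B and C with combination A and C. Between these 2 groups, the libraries' deviations from their group means were correlated at -0.536 to -0.353. Replicate differences and treatment thus cannot be told apart in that fit, and its higher counts are no support for the calls. The 11 added were CXCL16 at 0.33, IL17RC at 0.40, IL28RA at 0.27 and IL32 at 0.48 above the sum, and CCL20 at -0.57, IL13RA2 at -0.54, IL15 at -0.48, IL17RB at -0.46, IL18R1 at -1.16, IL1RAP at -0.44 and IL20RB at -0.32 below it. Leaving out 1 library gave 6 to 16 genes in all, with 7 without DMSO A, DMSO B or tazemetostat C and 6 without ipatasertib A. By role 10 of the 11 were interleukins or growth factors and the other was the receptor IL1R1. CSF1 departed by 1.10 (SE 0.11, edgeR adjusted p = 4.46e-06), IL23A by 1.01 (SE 0.19, adjusted p = 0.00523), LIF by 0.72 (SE 0.17, adjusted p = 0.019) and IL11 by 0.46 (SE 0.13, adjusted p = 0.0473).

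Below the sum lay IL24 at -1.67 (SE 0.27, edgeR adjusted p = 0.00109), IL33 at -1.03 (SE 0.13, adjusted p = 0.000124) and IL6 at -0.99 (SE 0.12, adjusted p = 6.57e-05). The log2 changes of IL24 and IL33 with both inhibitors, 0.62 and 1.16, lay under the sums of the single changes, 2.28 and 2.18, and IL6 fell by 0.79 with both where the single changes summed to 0.21. IL7 was at -0.86 (SE 0.19, adjusted p = 0.0131), IL1A at -0.69 (SE 0.13, adjusted p = 0.00538), IL1B at -0.47 (SE 0.10, adjusted p = 0.0128) and IL1R1 at -0.43 (SE 0.10, adjusted p = 0.0249). IL1R1 itself was higher with ipatasertib, tazemetostat and both, by 0.88, 0.53 and 0.98 (edgeR adjusted p = 1.17e-08, 1.12e-05 and 5.72e-10). The call of LIF ended without DMSO A or B, ipatasertib A, tazemetostat C or combination C (adjusted p 0.0511 to 0.0785), that of IL7 without DMSO A or B, ipatasertib A or tazemetostat C (adjusted p 0.0504 to 0.0609), and that of IL1B without ipatasertib A or B (adjusted p = 0.055 and 0.0712). The call of IL11 ended when any 1 DMSO or ipatasertib library, tazemetostat B or C, or combination A or C was left out (adjusted p 0.0593 to 0.163) and with RLE or total-count scaling (0.0507 and 0.07). The call of IL1R1 ended without any 1 DMSO library, ipatasertib A or C, tazemetostat B or C, or combination A or C (adjusted p 0.0505 to 0.118). By contrast, IL7R (-0.18, adjusted p = 0.56), IL27RA (-0.06, adjusted p = 0.784) and IL20RA (-0.08, adjusted p = 0.748) had small departures that were not called.

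**Figure D5:**
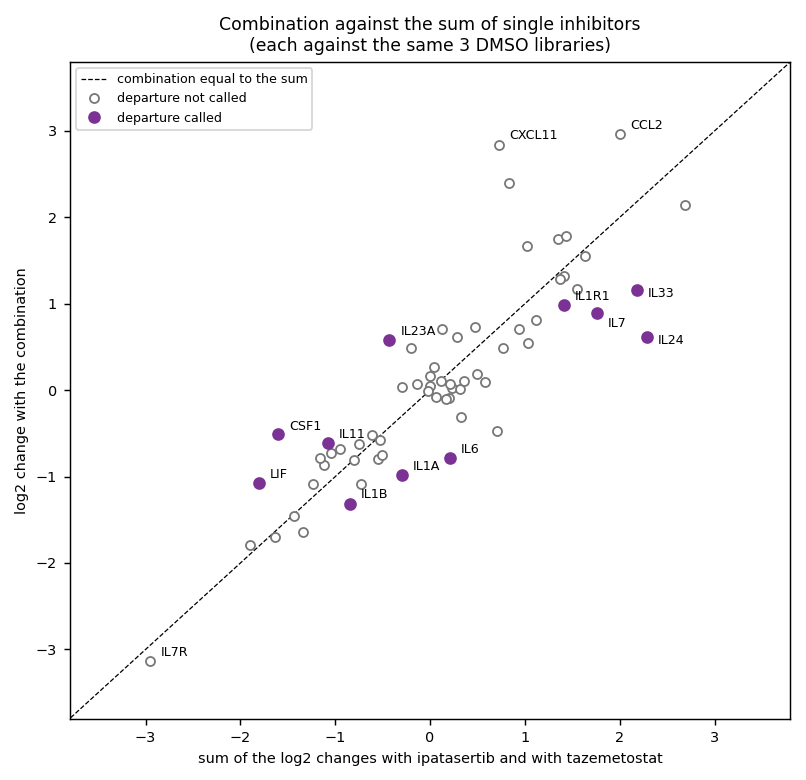
Log2 change with the combination (vertical axis) against the sum of the log2 changes with ipatasertib and with tazemetostat (horizontal axis) for the 65 tested genes, all against the same 3 DMSO libraries, with the line of equality dashed. Filled points are the 11 genes called in the interaction test, among them CSF1 above the line at a departure of 1.10 and IL24 below it at -1.67, and IL7R at the lower left lies close to the line.

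The partners through which these proteins signal were taken from 4 fixed lists, and those named here were picked after their values were seen. Of all tested genes, 25.4% were higher and 28.7% lower with ipatasertib, 25.1% and 20.9% with tazemetostat, and 36.5% and 34.5% with both. Of 23 chemokine receptors listed, 20 were in the files and 2 passed the filter. CXCR4, which binds CXCL12, held 0.164, 0.120 and 0.425 CPM under DMSO, 2.13, 2.21 and 1.70 with ipatasertib, 1.26, 1.93 and 1.39 with tazemetostat and 10.4, 12.2 and 10.5 with both. CXCR7, its scavenging relative, held 0.188, 0.0602 and 0.131 CPM under DMSO, 0.151, 0.304 and 0.0869 with ipatasertib, 0.792, 0.791 and 1.06 with tazemetostat and 0.752, 0.781 and 0.871 with both. Their DMSO values lie near the level of 3 counts (0.0600 to 0.134 CPM over the libraries), so no fold is given. Of 7 tested among 13 shared chains and related ligands or receptors, 1 was higher and 3 lower with ipatasertib, 3 and 2 with tazemetostat, and 2 and 3 with both. The 1 higher with ipatasertib was CSF3R, which is also among the higher with tazemetostat and with both. CSF3R held 0, 0.0301 and 0.0327 CPM under DMSO and passed the filter through other groups, so no fold is given. IL6ST, the gp130 chain through which IL6, IL11 and LIF act, fell by 0.23, 0.21 and 0.46 (edgeR adjusted p = 0.0208, 0.0386 and 5.26e-05).

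All 18 JAK-STAT genes listed were tested, of which 6 were higher and 5 lower with ipatasertib, 4 and 2 with tazemetostat, and 6 and 6 with both. The shares of all tested genes, for this list and the next, were 25.4% and 28.7%, 25.1% and 20.9%, and 36.5% and 34.5%. JAK3, the kinase of the common gamma chain, rose by 1.43, 0.80 and 2.34 (edgeR adjusted p = 0.000307, 0.0294 and 1.25e-07). Its level was low, at 0.609, 0.932 and 0.621 CPM under DMSO and 1.86, 1.14 and 2.91 with ipatasertib. CISH, a STAT5 target and inhibitor, fell by 0.61 (edgeR adjusted p = 0.00565) with ipatasertib and by 1.20 (adjusted p = 8.91e-06) with both. STAT5A rose by 0.77 and 0.96 in these 2 comparisons (edgeR adjusted p = 2.08e-06 and 3.25e-08). Of the 19 IL1 and NF-kB signalling genes, all tested, 4 were higher and 7 lower with ipatasertib, 2 and 3 with tazemetostat, and 6 and 4 with both. Genes of the IkB family on this list differed. NFKBIZ fell by 0.43 with tazemetostat (edgeR adjusted p = 0.000361) and was not called with ipatasertib or with both. BCL3 was not called in any comparison against DMSO. NFKBIA rose by 0.31, 0.30 and 0.65 (edgeR adjusted p = 0.000103, 0.000217 and 2.58e-09). NFKBIB fell by 0.32 with ipatasertib and 0.36 with both (adjusted p = 0.018 and 0.0062), and NFKBIE by 0.29 and 0.48 (adjusted p = 0.0208 and 0.000272), with tazemetostat values of -0.23 and -0.12 that were not called (adjusted p = 0.0817 and 0.324).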

How the data were processed

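Per the labels, polyA RNA of SUM149PT cells was sequenced in 12 libraries. The authors deposited 1 file of raw counts per gene for each library and 1 table of normalized values, a signal that equals those counts divided by size factors (checked for all 23202 lines matched by symbol, with 26 unmatched). STAR, SAMtools, HTSeq, DESeq2 and hg19 are named per the submitters' processing notes, while neither annotation nor strand is given in the sources used here. Summary lines (29.8% to 38.6% of reads) were left out of library sizes. Counts of all genes were fitted with edgeR 4.0.16 in R 4.3.3 (filterByExpr, TMM, quasi-likelihood F-test, Benjamini-Hochberg adjustment over 14874 genes, threshold 0.05), with 1 coefficient per group and no block. The SE is the absolute log2 change over the square root of F. A floor of 3 counts equals 0.0600 to 0.134 CPM, for counting error only. Alternatives were DESeq2 1.42.0, other scalings and filters, a replicate block, fits of 2 groups, and left-out libraries. The genes, lists and tests were chosen with earlier results of these data known. Genes with full values had a mean of at least 1 CPM and a called change of at least 2-fold against DMSO or a called departure of at least 0.5, plus IL6 and IL8. Levels were not compared between genes, since no transcript lengths were used. Promoters are RefSeq's on GRCh38.p14, matched by symbol for 102 of the 131 genes. RefSeq spans that overlap IL6 (IL6-AS1), IL6R, LIF, IL7 (ZC2HC1A), IL24 (FCMR), IL17RD, IL15RA, IL33 and IL1RAPL2 hold other genes whose reads cannot be told apart without strand.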

Additional observations from a re-analysis of the deposited data

Results flagged for a closer look

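In 9 of the genes given with full values the effect of ipatasertib differed between cells with and without tazemetostat, by the interaction term of the edgeR fit (3 libraries a group). The departure from additive log2 changes was above 0 for CSF1 (1.0953, edgeR adjusted p = 4.46e-06), IL23A (1.0094, adjusted p = 0.00523) and LIF (0.7219, adjusted p = 0.019). It was below 0 for IL24 (-1.6654, adjusted p = 0.00109), IL33 (-1.0265, adjusted p = 0.000124), IL6 (-0.9941, adjusted p = 6.57e-05), IL7 (-0.8638, adjusted p = 0.0131), IL1A (-0.6894, adjusted p = 0.00538) and IL1B (-0.4734, adjusted p = 0.0128). Leaving out 1 library ended the call of LIF (without DMSO A or B, ipatasertib A, tazemetostat C or combination C, adjusted p 0.0511 to 0.0785), of IL7 (without DMSO A or B, ipatasertib A or tazemetostat C, 0.0504 to 0.0609) and of IL1B (without ipatasertib A or B, 0.055 and 0.0712).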

How the results depend on the processing

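Of the 455 values of the 65 tested genes over 7 comparisons, 256 were called, and 196 of these kept their call and direction under each of the 20 alternatives that gave them a value (212 had all 20). Of the 132 called values of the genes given in full, 116 did. The number of genes called in the interaction was 22 without tazemetostat A and combination B, against 11 with all libraries, and 6 to 16 with 1 library left out. The other counts of called genes stayed within 1.5 times: with 1 library left out they were 29 to 38 for ipatasertib, 40 to 48 for tazemetostat and 40 to 47 for the combination against DMSO. Against tazemetostat the combination had 34 to 42 and ipatasertib 39 to 45, and the combination against ipatasertib had 28 to 41.

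Signs changed for 73 values that were called neither before nor after. Of the 3 other values that changed sign, 2 were of IL32 without tazemetostat A and combination B: 0.0238 (edgeR adjusted p = 0.742) for the combination against tazemetostat, called at -0.21 with all libraries, and 0.15 (adjusted p = 0.0174) for ipatasertib against tazemetostat. The other was IL8 for the combination against tazemetostat, with a range of -0.1783 (without combination B) to 0.209 (without combination A, adjusted p = 0.0444). The cause was not tested. Without tazemetostat A and combination B, 13 calls ended and 33 were gained. The libraries left in these 2 groups deviated in opposite ways, as given with the interaction, so replicate differences may enter these calls. Of the genes given in full, IL7 with tazemetostat (0.34, adjusted p = 0.0589), IL1B for ipatasertib against tazemetostat (-0.10, 0.161) and IL6R for the combination against tazemetostat (-0.49, 0.0536) lost theirs. Gained were CCL20 with ipatasertib (-0.35) and in the interaction, IL1RAP in the interaction, IL17RE for ipatasertib against tazemetostat (0.58), IL1A (-0.25) and LIF (0.37) for the combination against ipatasertib, and IL1RN (0.27), IL33 (-0.37) and IL8 (-0.22) for the combination against tazemetostat. Scaling by total counts alone moved the median log2 change of all genes by 0.12, 0.07 and 0.14 (ipatasertib, tazemetostat, both against DMSO), and gave 15 higher and 18 lower, 25 and 18, and 29 and 21 genes. The letters did not pair the libraries throughout, and this check cannot tell whether some of them shared a batch. Of 18 same-letter pairs, 6 had deviations correlated above 0.1 (range -0.353 to 0.657), beside -0.723 to 0.565 for pairs of different letters. The highest were tazemetostat A with combination A (0.657) and tazemetostat B with combination B (0.590). Of 12 libraries, 4 correlated best with their own letter. A replicate block by letter gave 36, 46 and 44 called genes against DMSO and 11 in the interaction, losing 1 of the 256 calls and gaining 7. The 66 untested genes had at most 17 counts in a library. Fits of only 2 groups gave no interaction.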
